A study of Mus musculus with 4 samples.

Results

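The cells described here were Cxcl13-expressing C1q macrophages of the mouse nasal mucosa. They were chosen by their own RNA counts: at least 500 unique molecular identifiers (UMIs, each one counted RNA molecule), at least 200 genes and less than 10% mitochondrial UMIs, with 5 or more UMIs summed over C1qa, C1qb and C1qc, 2 or more UMIs of Cxcl13, fewer than 3 of Arg1 plus Ccl24, fewer than 2 of P2ry12, Crybb1 and Gpr34 together, and none of Cd3e, Cd79a or Cxcr2. In all, 127 of the 72320 cells kept met this rule. Only RNA was measured, so "expressing" refers to Cxcl13 transcripts and not to secreted protein. Because Cxcl13 and C1q chose the cells, their levels in these cells are a description.

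Cxcl13 encodes a chemokine that draws cells bearing the receptor CXCR5, mainly B cells and follicular helper T cells, and it is best known from the follicles of lymphoid tissue, where stromal follicular dendritic and reticular cells make it. Macrophages of some inflamed and serosal tissues also express it. C1q, the recognition part of the classical complement pathway, is made largely by tissue macrophages, where it marks a resident, debris-clearing phenotype.

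The series held 4 single-cell libraries of CD45+ (leukocyte) cells from the nasal mucosa of C57BL/6 mice aged 8 weeks, 1 library for each of 4 groups: mice given vehicle or ribavirin without ovalbumin (Vehicle and Ribavirin) and mice given vehicle or ribavirin with it (Vehicle-OVA and Ribavirin-OVA). In this model of allergic rhinitis, per the study's methods, ovalbumin was injected with alum and then placed in the nose, and ribavirin is an antiviral drug that the series' title describes as a nasal spray. Its dose and timing, and how many mice went into a library, are not given in the sources used here, and the sample labels name magnetic enrichment of CD45+ cells where the series' text names fluorescence-activated sorting. With 1 library per group, a difference between groups compares 2 libraries, and kinds of cell were compared within a library. No test was possible. Values in brackets are exact 95% intervals, and beside a count of 0 the share that 3 counts would give is named as its limit, and both cover counting error only.

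The libraries held 10311 to 28277 barcodes, of which 8817 to 25727 were kept, with a median of 3432 to 5132 UMIs per kept cell. Between 57 and 174 barcodes were shared by each pair of libraries, and no barcode was shared between chosen cells of different libraries. One of the chosen Vehicle cells had a barcode that was also listed in Ribavirin, and 1 chosen Ribavirin cell had one that was also listed in Vehicle-OVA.

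The stretches just before the start of transcription are shown for Cxcl13 and for Ccl8 and Ccl12, a pair of CC chemokine genes whose RNA is compared below. Each covers the 100 bases before the annotated start on the gene's own strand, from RefSeq on GRCm38.p6, at chr5:95956839-95956938 (+) for Cxcl13, chr11:82115085-82115184 (+) for Ccl8 and chr11:82101745-82101844 (+) for Ccl12. Capitals mark TATAAA, the core of a TATA box.
Cxcl13: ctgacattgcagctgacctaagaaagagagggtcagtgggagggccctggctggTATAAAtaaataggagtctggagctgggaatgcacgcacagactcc
Ccl8: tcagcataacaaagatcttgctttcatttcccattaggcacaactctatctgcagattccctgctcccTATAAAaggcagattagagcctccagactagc
Ccl12: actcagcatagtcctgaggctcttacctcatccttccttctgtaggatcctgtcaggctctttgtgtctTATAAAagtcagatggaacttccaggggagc
The motif began 46 bases before the start in Cxcl13, 32 in Ccl8 and 31 in Ccl12. Searched on the gene's strand only, it was present in the same window of 1248 of 32851 promoters, or 3.80%. These matches describe the letters and say nothing of which factor binds there. Ccl7, which is also described below, had no entry.

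Cells just inside and just outside the rule were few. Of cells that met every other criterion, 42 in Vehicle, 5 in Vehicle-OVA, 22 in Ribavirin and 1 in Ribavirin-OVA had a single Cxcl13 UMI, and 12, 1, 6 and 1 had exactly 2. The C1q limit left out few, since no cell had exactly 5 C1q UMIs and only 2 cells, both in Vehicle, had 4. The limit on P2ry12, Crybb1 and Gpr34, genes typical of microglia, mattered more: 26 Vehicle and 15 Ribavirin cells had 1 such UMI and were kept, and 10 and 8 had 2 and were left out. One Ribavirin cell was left out with 3 Arg1 plus Ccl24 UMIs. Another 9, 2, 15 and 0 cells were left out for a Cd3e, Cd79a or Cxcr2 UMI.

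Cxcl13-expressing C1q macrophages were found mainly in the libraries without ovalbumin. There were 74 in Vehicle, 6 in Vehicle-OVA, 46 in Ribavirin and 1 in Ribavirin-OVA. As a share of kept cells this was 0.288% [0.226, 0.361] in Vehicle, 0.0343% [0.0126, 0.0746] in Vehicle-OVA, 0.227% [0.166, 0.303] in Ribavirin and 0.0113% [0.000287, 0.0632] in Ribavirin-OVA. The intervals of both OVA libraries lay below those of both libraries without OVA. The share in Vehicle-OVA was 0.119 times that in Vehicle [0.0424, 0.272], and that in Ribavirin-OVA was 0.0500 times that in Ribavirin [0.00124, 0.293]. Ribavirin and Vehicle differed by less than counting error, with a ratio of 0.789 [0.534, 1.16].

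Most C1q macrophages of the OVA libraries were outside the rule for another reason, their Arg1 and Ccl24. Arg1 encodes arginase 1 and Ccl24 an eosinophil-attracting chemokine, and both are typical of macrophages exposed to interleukin-4. Cells with 3 or more of these UMIs made up 1.25% of C1q macrophages in Vehicle and 4.54% in Ribavirin, but 76.9% in Vehicle-OVA and 75.7% in Ribavirin-OVA. Over all C1q macrophages, the Cxcl13-expressing cells were 1.92% of 3850 in Vehicle, 0.388% of 1548 in Vehicle-OVA, 1.63% of 2820 in Ribavirin and 0.0721% of 1388 in Ribavirin-OVA. Over the C1q macrophages low in Arg1, Ccl24 and the microglial genes, they were 2.59% [2.04, 3.24] of 2859, 2.17% [0.799, 4.66] of 277, 2.23% [1.64, 2.97] of 2059 and 0.398% [0.0101, 2.20] of 251. On this denominator the ratio of Vehicle-OVA to Vehicle was 0.837 [0.298, 1.91] and its interval included equal shares, so that this number of cells could not show a difference. That of Ribavirin-OVA to Ribavirin was 0.178 [0.00442, 1.04] and rests on 1 cell. Without the limit on Arg1 and Ccl24, the rule took in 8 cells in Vehicle-OVA and 74 in Vehicle, and 1 in Ribavirin-OVA and 47 in Ribavirin. The log2 ratios with OVA over without were then -2.65 and -4.35 of kept cells, and -1.90 and -4.53 of all C1q macrophages. These low-Arg1 macrophages were shallower with OVA, at a median of 4668 UMIs in Vehicle-OVA and 3179 in Ribavirin-OVA against 9632 in Vehicle and 9865 in Ribavirin. With each cell thinned to 3000 UMIs, 2.46% [1.90, 3.13] of 2604 in Vehicle and 3.03% [0.991, 6.93] of 165 in Vehicle-OVA had a Cxcl13 UMI. In Ribavirin 2.60% [1.93, 3.42] of 1887 had one, and in Ribavirin-OVA 0 of 129 [0, 2.82]. The log2 ratios with OVA over without were then -2.41 and -4.60 of kept cells, and -1.76 and -4.63 of all C1q macrophages. The Ribavirin-OVA ratios rest on 1 cell. Any further part of depth in the shares was not tested.

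**Figure D1:**
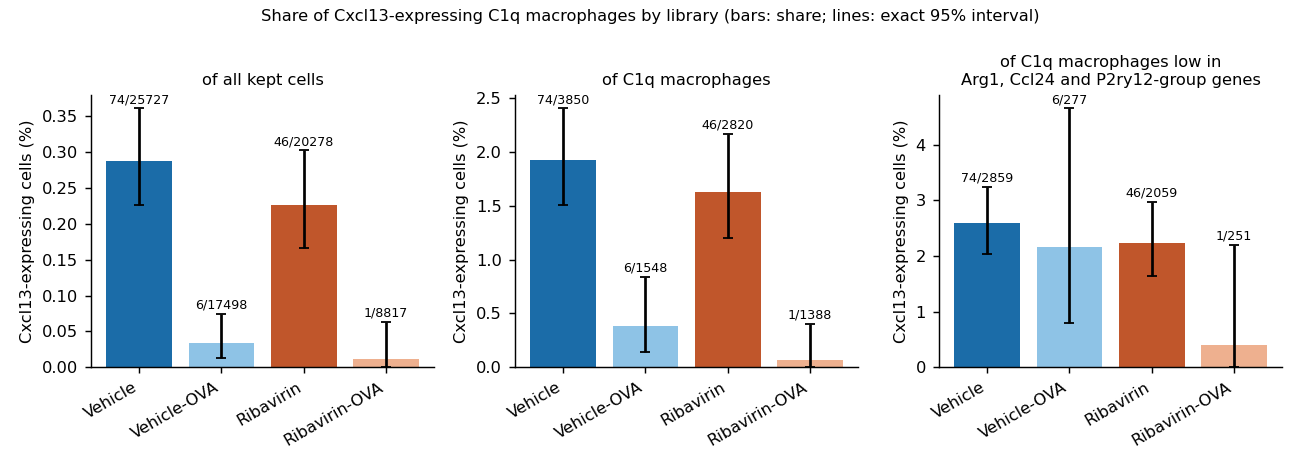
Share of Cxcl13-expressing C1q macrophages in each library (bars, in %; lines, exact 95% intervals) over all kept cells, over all C1q macrophages and over C1q macrophages low in Arg1, Ccl24 and the P2ry12 group, with the number of cells above each bar. On the first 2 scales the OVA libraries are low, whereas on the last Vehicle-OVA (2.17%) lies beside Vehicle (2.59%).

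Within the chosen cells Cxcl13 ranged from traces to very high levels. In Vehicle the cells held from 2 to 460 Cxcl13 UMIs with a median of 28, and in Ribavirin from 2 to 626 with a median of 41. There were 14 Vehicle and 10 Ribavirin cells with 100 or more. Per 10000 UMIs of the cell the medians were 40.6 in Vehicle, 27.3 in Vehicle-OVA and 33.1 in Ribavirin, and the highest cell reached 407 in Vehicle and 364 in Ribavirin. The 6 Vehicle-OVA cells held 136, 36, 28, 20, 3 and 2 Cxcl13 UMIs, so that 3 of them lay between the quartiles of the Vehicle cells, 4 and 63. The single Ribavirin-OVA cell held 2.

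**Figure D2:**
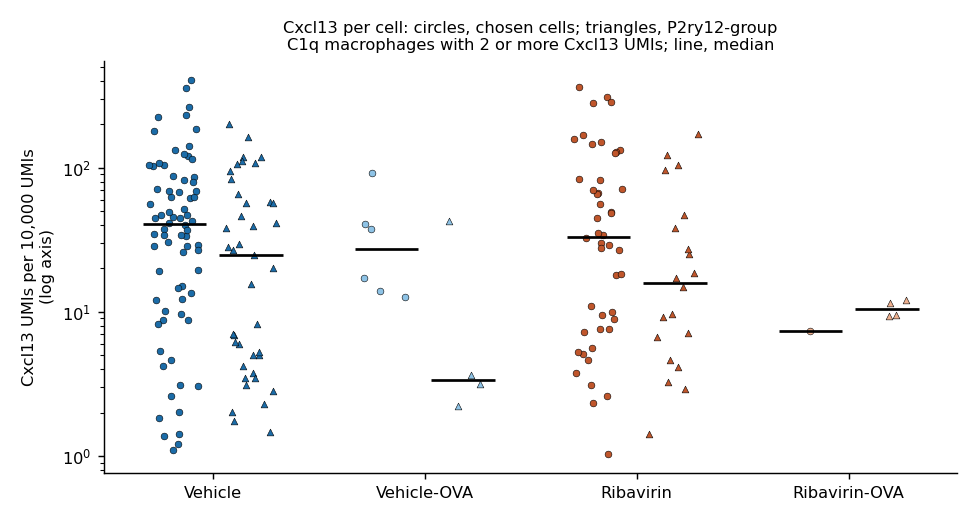
Cxcl13 UMIs per 10000 UMIs in each cell on a log axis, by library, for the chosen cells (circles) and for C1q macrophages of the P2ry12 group with 2 or more Cxcl13 UMIs (triangles); lines are medians. Levels span from 1.095 to 407 in Vehicle, and the few cells of the OVA libraries lie inside that span.

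A small number of cells carried most Cxcl13 RNA of each library without OVA. The 74 chosen Vehicle cells held 4215 of the library's 7846 Cxcl13 UMIs (53.7%), and the 46 chosen Ribavirin cells held 3734 of 5685 (65.7%). In Vehicle-OVA the library held only 390, of which the 6 cells had 225 (57.7%), and Ribavirin-OVA held 78, of which the 1 cell had 2. Most of the remainder also lay in cells rich in C1q. C1q macrophages of the P2ry12 group with 2 or more Cxcl13 UMIs, which the rule left out, numbered 41, 4, 20 and 4 and held 27.7%, 12.1%, 15.2% and 64.1% of the UMIs, in the order of libraries used above. Cells with C1q and Cxcl13 that also had a Cd3e, Cd79a or Cxcr2 UMI numbered 20, 2, 17 and 2 and held 15.8% to 20.5%. Other cells with 2 or more Cxcl13 UMIs, outside C1q macrophages, numbered 13, 2, 7 and 0.

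A Cxcl13 UMI was also seen in cells that should lack the gene, at a lower rate than in C1q macrophages of the same library. In Vehicle 4.44% of C1q macrophages (median 9759 UMIs) had at least 1, against 0.344% of neutrophils (median 2462), 0.404% of T cells (median 4748) and 0.515% of B cells (median 7654). In Ribavirin the shares were 3.37%, 0.461%, 0.357% and 0.245%. With each cell thinned to 3000 UMIs, which left out 275 of 3850 C1q macrophages and 3077 of 4940 neutrophils of Vehicle, the shares were 3.02% of C1q macrophages, 0.268% of neutrophils, 0.182% of T cells and 0.208% of B cells. In Vehicle-OVA and Ribavirin-OVA 1.29% and 0.721% of C1q macrophages had a Cxcl13 UMI, or 0.606% and 0.352% after thinning. No T cell of Ribavirin-OVA had one, for which the limit of 3 counts is 0.441%. Unthinned, the shares in its neutrophils and those of Vehicle-OVA were 0.0732% and 0.0434%. After thinning, T cells of Vehicle-OVA had 0.164% [0.00415, 0.91] and its neutrophils 0.0259% [0.000655, 0.144]. The neutrophil interval lay below that of its C1q macrophages [0.262, 1.19], and the T cell interval overlapped it. In Ribavirin-OVA the neutrophils then had 0.137% [0.00346, 0.759], which overlapped its C1q macrophages [0.0961, 0.900]. In C1q macrophages with Arg1 and Ccl24 the share was 0 of 48 cells in Vehicle, with a limit of 6.25%, and 0.420% [0.136, 0.977] of 1191 cells in Vehicle-OVA.

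The name goes with 8 marker genes, of which Cxcl13 and C1qb were part of the rule. The list was chosen with earlier results of these data known, so the presence of its genes is a description and no check of the name. Numbers of cells with a UMI are given here without thinning. In Vehicle and Ribavirin all 8 were detected. Apoe, which encodes the lipid carrier apolipoprotein E, was present in every chosen cell. Ms4a7, a membrane protein gene of macrophages, was found in 67 of 74 Vehicle and 45 of 46 Ribavirin cells, Cx3cr1, the fractalkine receptor, in 59 and 36, Vcam1 in 50 and 34, Ccl12 in 47 and 31, and Ccl7 in 38 and 24. Csf1r, the receptor for the macrophage growth factor CSF1, was found in 68 and 45. In the Ribavirin-OVA cell Cx3cr1 was not detected. The markers were therefore present, but not all together in every cell. Their summed level was not particular to these cells, as given below for the P2ry12 group. Per 10000 UMIs of a cell, Apoe ran from 25.1 to 1325 with a median of 354 in Vehicle and from 60.9 to 780 with a median of 327 in Ribavirin. Ms4a7 had a median of 13.8 in both libraries, with highest values of 85.9 and 37.9. Cx3cr1 had medians of 6.04 and 3.85 and Vcam1 of 3.26 and 3.22, with cells at 0 in each.

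To show where these cells differed, they were set against C1q macrophages that met the same rule with 0 Cxcl13 UMIs, 2743 in Vehicle and 1991 in Ribavirin (Cxcl13-negative cells). UMIs were summed over the cells of a library and given as CPM, that is, relative to all UMIs of those cells and on the same scale for every set, and a gene was counted when log2(CPM + 5) differed by more than 2-fold in the same direction in both libraries. Of 5274 genes, 69 were higher (1.31%) and 68 lower (1.29%) in the Cxcl13-expressing cells. Median depth was alike, at 10056 and 9585 UMIs in Vehicle and 10877 and 9865 in Ribavirin, but C1q was not: it made up a median of 1.95% and 1.65% of the UMIs of Cxcl13-expressing cells and 1.07% and 0.955% of those of Cxcl13-negative cells. The Cxcl13-negative set also held cells of up to 348082 UMIs in Vehicle and 435929 in Ribavirin. When both sets were limited to cells with at least 1% C1q UMIs, a limit added after the data had been seen, 32 of 5209 genes were higher (0.614%) and 30 lower (0.576%). Of the 32 higher genes 29 were among the 69, and of the 30 lower genes 24 were among the 68. Ratios at this limit are given below as "at 1% C1q".

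Some chemokine genes were higher in the Cxcl13-expressing cells. Of 16 measured chemokine genes other than Cxcl13, 4 were higher (Ccl8, Ccl7, Ccl12 and Pf4) and 1 was lower (Ccl17), and their median log2 ratio was 0.75 in Vehicle and 0.30 in Ribavirin, against 0.00 and 0.10 over all genes. At 1% C1q Ccl8 and Ccl7 remained past 2-fold in both libraries.

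On the CPM + 5 scale, Ccl8 had the highest ratio by the lesser of both libraries. It encodes a ligand of monocyte and T cell receptors and is a marker of resident macrophages. It had 8031 CPM in Cxcl13-expressing and 915 CPM in Cxcl13-negative cells of Vehicle, a ratio of 8.78 [8.53, 9.04], and 4770 and 561.5 CPM in Ribavirin, a ratio of 8.496 [8.14, 8.87]. At 1% C1q the ratios were 5.16 and 5.21. It was not carried by a few cells: 66 of 74 Vehicle and 36 of 46 Ribavirin cells had a UMI, and no cell held more than 8.12% or 9.94% of them. Per 10000 UMIs of a cell, Ccl8 ran from 0 to 414 with a median of 63.3 in Vehicle and from 0 to 441 with a median of 24.6 in Ribavirin, with 8 and 10 cells at 0.

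Ccl7, Ccl12, Ccl2 and Pf4 were higher by less than Ccl8. Ccl7, a ligand of CCR2 that draws monocytes, had 664 against 131 CPM in Vehicle (ratio 5.08 [4.60, 5.60]) and 584 against 119 CPM in Ribavirin (4.89 [4.33, 5.51]). Ccl12, a mouse ligand of the same receptor, had 956 against 378 CPM (2.53 [2.34, 2.74]) and 616 against 209 CPM (2.94 [2.62, 3.30]), and its ratios fell to 1.54 and 1.73 at 1% C1q. Ccl2, the main CCR2 ligand, had ratios of 2.01 and 3.45 in CPM and did not pass 2-fold on the CPM + 5 scale in Vehicle. Pf4, which encodes platelet factor 4, had 713 against 117 CPM in Vehicle and 362 against 109 CPM in Ribavirin, ratios of 6.10 and 3.32. Its ratio in Ribavirin was 1.58 at 1% C1q.

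In single cells the chemokines overlapped only in part. After thinning to 3000 UMIs, which kept 58 of 74 Vehicle and 44 of 46 Ribavirin cells, Ccl8 was seen in 77.6% [64.7, 87.5] and 75% [59.7, 86.8] of Cxcl13-expressing cells against 19.7% and 16.7% of Cxcl13-negative cells. Unthinned, the shares were 89.2% and 78.3% against 29.4% and 25.2%. Ccl8, Ccl7 and Ccl12 were detected together in 14 of 58 and 8 of 44 Cxcl13-expressing cells, or 24.1% and 18.2%, against 3.71% and 2.46% of Cxcl13-negative cells. None of the 3 was seen in 6 of 58 and 3 of 44, against 64.1% and 66.6%.

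**Figure D3:**
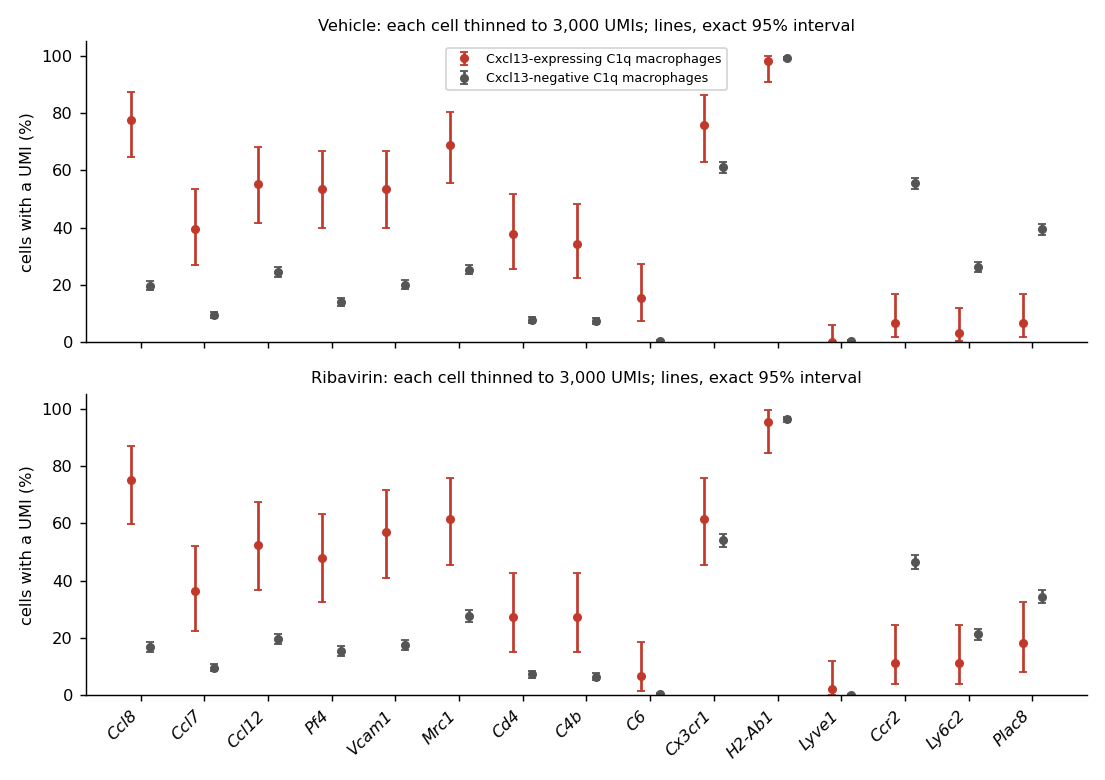
Percent of cells with at least 1 UMI of each gene after thinning each cell to 3000 UMIs, in Cxcl13-expressing (red) and Cxcl13-negative (grey) C1q macrophages of Vehicle and Ribavirin, with exact 95% intervals. Chemokine genes, Vcam1, Mrc1, Cd4 and C4b were seen in more of the Cxcl13-expressing cells (Ccl8 in 77.6% against 19.7% in Vehicle), Ccr2 in fewer, and H2-Ab1 in nearly all cells of both kinds.

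Over steps of raw Cxcl13 UMIs, genes moved in different ways. Ccl8 had 915 CPM in Vehicle cells with 0 Cxcl13 UMIs, 3610 in the 42 cells with 1, 8381 in the 27 cells with 2 to 9, and 7913 in the 47 cells with 10 or more. In Ribavirin the same steps were 561.5, 3572, 2870 and 5325 CPM, so that it was lower at one later step in each library. Vcam1 was higher at each step, with 178, 424, 498 and 669 CPM in Vehicle and 146, 338, 428 and 632 CPM in Ribavirin. Pf4 had the same order, with 117, 191, 498 and 785 CPM and 109, 198, 201 and 409 CPM, and so did Mrc1 and C4b. Ccr2 was lower at each step in Vehicle, with 543, 406, 97.4 and 28.9 CPM, and in Ribavirin it had 383 and 350 CPM in the first steps and 75.5 and 75.9 CPM in the later ones. The Vehicle cells with 2 to 9 Cxcl13 UMIs were shallow, with a median depth of 2426 UMIs against 11864 in those with 10 or more. Within the chosen cells the Cxcl13 share was ranked against the shares of other genes, over 74 Vehicle and 46 Ribavirin cells. The rank correlation with Ccl8 was 0.00 and 0.25. It was -0.05 and 0.14 with Vcam1, -0.02 and 0.16 with Pf4 and -0.09 and 0.28 with Mrc1. The rise of Vcam1, Pf4 and Mrc1 over the steps was thus not seen as a rank correlation within the chosen Vehicle cells. These values are a description over cells that share a library, with both shares taken from the same UMI total.

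Other genes of the CXCL13 axis and of lymphoid organisation did not pass 2-fold in both libraries, in either direction, for any of 7 measured, with medians of 0.15 and 0.20. The list included Ltbr and Tnfrsf1a, receptors for lymphotoxin and for tumour necrosis factor. Tnfsf13b, which encodes the B cell survival factor BAFF, had 63.5 against 35.2 CPM in Vehicle and 77.7 against 32.7 CPM in Ribavirin, with ratios of 1.80 [1.30, 2.44] and 2.38 [1.69, 3.26]. Cxcr5, the receptor of CXCL13, had 0 UMIs in the chosen Vehicle cells and 1 in those of Ribavirin.

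Several complement genes were higher besides C1q. Among the complement genes described here that the rule did not use, C2 and C4b were higher and Cfb and Itgax were lower. C2 and C4b encode the components that act directly after C1 in the classical pathway. C4b had 221 CPM in the Cxcl13-expressing cells of Vehicle and 222 CPM in those of Ribavirin, against 39.0 and 39.4 CPM, with ratios of 5.66 [4.74, 6.71] and 5.63 [4.60, 6.83] and of 3.62 and 3.69 at 1% C1q. C2 was low, at 36.1 and 37.9 CPM, with ratios of 7.5 and 6.90. Cfb, of the alternative pathway, had 0.477 and 0.449 times the level of Cxcl13-negative cells. At 1% C1q Cfb no longer passed 2-fold in both libraries, whereas C2, C4b and Itgax did. C3, the central component, had ratios of 1.69 and 1.09.

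A pair of further complement genes stood among the 12 genes with the highest ratios. Cd55 encodes decay-accelerating factor, which limits complement on the cell's own surface, and had 50.5 against 3.44 CPM in Vehicle and 51.2 against 8.47 CPM in Ribavirin. C6, a component of the membrane attack complex, had 70.7 against 2.81 CPM and 19.0 against 1.98 CPM. Both were confined to a minority of the cells, Cd55 to 14 of 74 and 8 of 46 and C6 to 14 of 74 and 4 of 46, and the Ribavirin value of C6 rests on 10 UMIs.

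Vcam1, an adhesion molecule that binds leukocyte integrins, was the only one of 9 measured adhesion genes to differ. It had 626 against 178 CPM in Vehicle (3.52 [3.18, 3.88]) and 586 against 146 CPM in Ribavirin (4.01 [3.56, 4.51]), and ratios of 2.18 and 2.35 at 1% C1q. Icam1, another ligand of leukocyte integrins, had ratios of 1.01 in both libraries.

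Genes of resident tissue macrophages were higher in large part. Of 11 measured, 8 were higher (Mrc1, Gas6, Cd209f, Sepp1, Igf1, Stab1, Ccl8 and Marco) and none lower, with median log2 ratios of 1.39 and 1.31. At 1% C1q only Cd209f, Ccl8 and Marco of 12 measured remained past 2-fold in both libraries, with medians of 1.19 and 0.81. Mrc1, the mannose receptor CD206, had 594 against 168 CPM in Vehicle and 474 against 160 CPM in Ribavirin, ratios of 3.54 and 2.96. Igf1, a growth factor gene, had ratios of 6.13 and 2.83, and Gas6, which bridges dying cells to phagocyte receptors, 5.26 and 2.55.

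Single cells decided the values of Cd209f and Marco. All 8 Cd209f UMIs of the Vehicle cells came from 1 cell, and 83.7% of the Marco UMIs of the Ribavirin cells came from 1 cell, without which its level was 33.6 in place of 197 CPM. Lyve1, a marker of perivascular resident macrophages, was nearly absent, with 0 UMIs in 74 Vehicle cells and 1 UMI in 46 Ribavirin cells. Folr2 was seen in 9 and 6 cells and Cd163 in 8 and 4.

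General macrophage genes differed less. Of 14 measured, 3 were higher (Adgre1, Maf and Ms4a7) and none lower, and at 1% C1q none passed in both libraries. Adgre1, which encodes F4/80, had 616 against 213 CPM in Vehicle and 922 against 254 CPM in Ribavirin, ratios of 2.90 and 3.62, and of 1.94 and 2.46 at 1% C1q. Ms4a7 had ratios of 2.49 and 2.37 that became 1.54 and 1.44. Apoe had 37877 against 23813 CPM and 32945 against 22186 CPM, ratios of 1.59 and 1.49 that became 1.09 and 1.02. Cx3cr1 had ratios of 1.46 and 1.29 that became 1.08 and 0.852. Of these marker genes of the name, Vcam1 and Ccl7 but not Ms4a7, Apoe, Ccl12 or Cx3cr1 thus kept a 2-fold difference in both libraries at 1% C1q.

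MHC class II transcripts, whose proteins present antigen to T helper cells, were at like levels in both kinds of cell. None of 7 measured MHC class II genes passed 2-fold in either direction. H2-Ab1, a chain of the class II molecule I-A, had 10897 against 10932 CPM in Vehicle and 8907 against 8985 CPM in Ribavirin, ratios of 0.997 [0.974, 1.02] and 0.991 [0.963, 1.02]. Cd74, the invariant chain, had ratios of 1.15 and 1.18. None of 28 genes of lipid handling and the lysosome and none of 16 immediate early genes passed either. Of 13 efferocytosis genes, which act in the uptake of dying cells, Stab1 and Gas6 were higher. Lrp1, an efferocytosis receptor gene that the study followed, had ratios of 1.19 [0.963, 1.46] and 0.807 [0.593, 1.07], and G3bp1, a stress granule scaffold gene, 1.12 [0.882, 1.40] and 1.19 [0.890, 1.55].

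Cd4, the T helper cell coreceptor that some mouse macrophages also express, was higher in the Cxcl13-expressing cells, at 209 against 34.4 CPM in Vehicle and 131 against 34.7 CPM in Ribavirin, ratios of 6.09 [5.07, 7.26] and 3.78 [2.91, 4.84]. At 1% C1q the ratios were 4.15 and 2.08. It was found in 37 of 74 and 21 of 46 cells. Cd3e was 0 by the rule, and of the other genes of the T cell receptor complex Cd3d was seen in 3 and 4 cells, at 11.5 and 9.48 CPM, and Cd3g in 3 and 2, at 11.5 and 20.9 CPM. Fcgr4, an activating receptor for immunoglobulin G, had ratios of 2.18 and 2.69 and did not pass 2-fold in both libraries at 1% C1q. Pmp22, Gbp2b and Xlr were the remaining genes among the 12 highest, with ratios of 6.69, 5.31 and 4.38 in Vehicle and 5.02, 5.75 and 6.38 in Ribavirin.

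Several monocyte genes were lower. Of 7 measured chemokine receptor genes none was higher and 2 were lower, Ccr1 and Ccr2, also at 1% C1q. Ccr2, the receptor that lets monocytes leave the bone marrow, had 46.2 against 543 CPM in Vehicle and 75.8 against 383 CPM in Ribavirin, ratios of 0.0850 [0.0581, 0.120] and 0.198 [0.141, 0.270]. After thinning it was seen in 6.90% against 55.5% of cells in Vehicle and 11.4% against 46.5% in Ribavirin. Ly6c2, an antigen of inflammatory monocytes, had ratios of 0.0850 and 0.248. Plac8, also typical of monocytes, had ratios of 0.0573 and 0.591, the latter with 38.1% of the UMIs in 1 cell, and of 0.158 and 0.144 at 1% C1q. Itgax, the integrin chain CD11c, had ratios of 0.288 and 0.136, Vegfa, of vascular growth factor, ratios of 0.281 and 0.0749, and Thbs1, of thrombospondin 1, ratios of 0.302 and 0.165. The 7 monocyte markers summed to 175 CPM in Vehicle and 588 CPM in Ribavirin, against 1716 and 1278 CPM in Cxcl13-negative cells.

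Other gene groups held few differing members. Of 19 interferon-stimulated genes Mx1 was higher and none lower, with 72.7% of its Vehicle UMIs and 52.0% of its Ribavirin UMIs in 1 cell each. Of 11 cytokine and growth factor genes Igf1 was higher and Vegfa lower. Of 8 genes that macrophages raise with interleukin-4, outside the rule, Mrc1 was higher and Ccl17, Mgl2 and Fn1 lower. Of the 6 measured at 1% C1q, only Fn1 passed in both libraries, and it was lower. Ccl17, a chemokine for T helper cells of type 2, had 2 UMIs in each library's Cxcl13-expressing cells, against 64.7 and 46.9 CPM in Cxcl13-negative cells. Of 5 cell cycle genes Birc5 was higher, seen in 4 Vehicle and 3 Ribavirin cells.

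**Figure D4:**
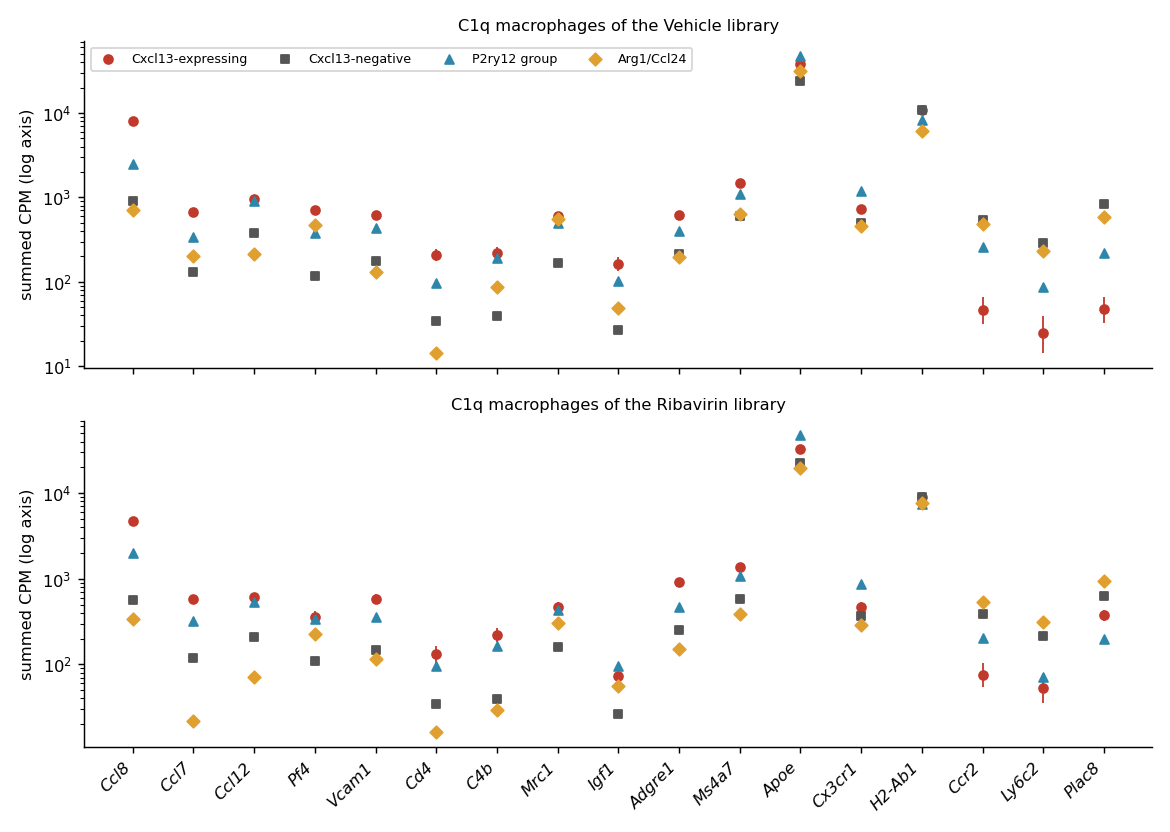
Summed CPM (log axis) of 17 genes in 4 sets of C1q macrophages of Vehicle and Ribavirin: Cxcl13-expressing cells (red, with exact 95% intervals), Cxcl13-negative cells (grey), cells with P2ry12, Crybb1 or Gpr34 (blue) and cells with Arg1 and Ccl24 (yellow). The Cxcl13-expressing cells are highest for Ccl8, Ccl7, Ccl12, Vcam1 and Cd4 in both libraries and lowest for Ccr2 and Ly6c2.

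The 12 genes with the lowest ratios included no typical macrophage gene. Several encode secreted products of nasal glands and epithelium, among them Obp1a and Obp1b (odorant binding proteins), Mup5 (a major urinary protein), Bpifa1, Reg3g and Pip. Obp1a had 118 against 3598 CPM in Vehicle and 1128 against 15132 CPM in Ribavirin. At 1% C1q its ratios were 0.566 and 1.02 and those of Pip were 2.16 and 2.27, the former from 1 UMI, so that in Ribavirin neither gene was lower among cells of at least 1% C1q. The summed level of 7 epithelial markers moved in the same way, at 27.4 against 264 CPM in Vehicle and 154 against 962 CPM in Ribavirin, and their part in the result was not tested.

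**Figure D5:**
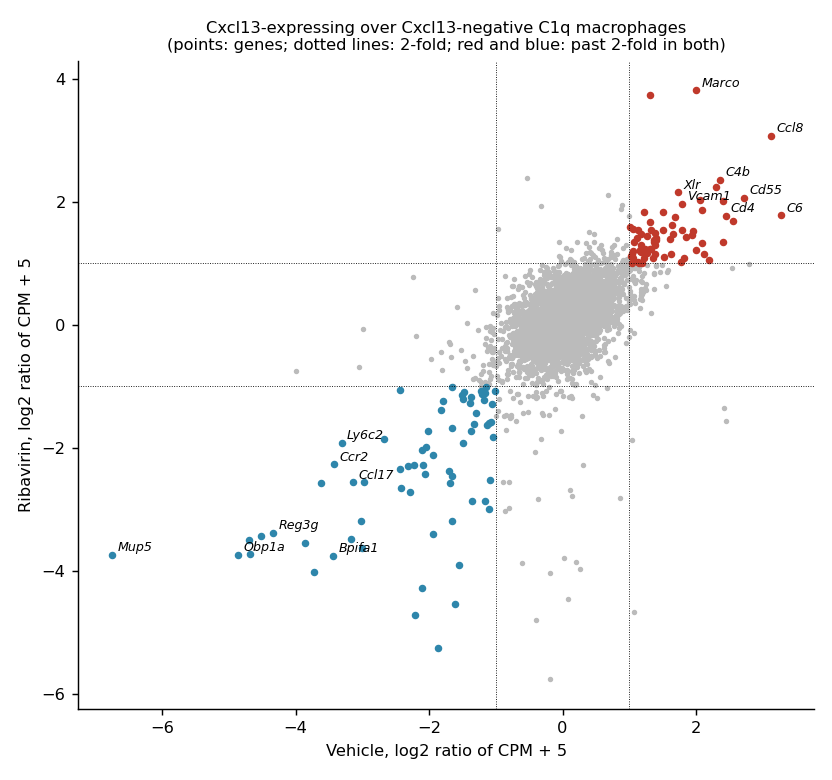
Log2 ratio of CPM + 5 in Cxcl13-expressing over Cxcl13-negative C1q macrophages for each of 5274 genes, in Vehicle (horizontal) and Ribavirin (vertical); dotted lines mark 2-fold, and red and blue points are the 69 genes higher and the 68 genes lower in both. Ccl8, C6, Cd55 and C4b lie at the upper right, Marco is raised by 1 Ribavirin cell, and gland genes such as Mup5 and Obp1a and the monocyte genes Ccr2 and Ly6c2 lie at the lower left.

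C1q macrophages of the P2ry12 group lay between on several of these genes. These 954 Vehicle and 648 Ribavirin cells had 2459 and 1978 CPM of Ccl8, 432 and 355 of Vcam1 and 255 and 201 of Ccr2. Their Cx3cr1, at 1203 and 871 CPM, was above the 726 and 468 CPM of the chosen cells. Summed over the 8 marker genes of the name, the chosen cells had 54741 and 48976 CPM and the P2ry12 group 56736 and 55562 CPM. The 41 and 20 of them that had 2 or more Cxcl13 UMIs had 6680 and 5317 CPM of Ccl8, 1103 and 796 of Vcam1, 370 and 261 of C4b and 80.2 and 71.3 of Ccr2. By ratio, these 4 genes differed less between the Cxcl13-expressing cells on either side of the P2ry12 limit than between those of the P2ry12 group and that group as a whole. The 48 and 128 cells with Arg1 and Ccl24 had 711 and 337 CPM of Ccl8, 132 and 116 of Vcam1 and 482 and 530 of Ccr2.

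The few Cxcl13-expressing cells of the OVA libraries were described one by one. In Vehicle-OVA the cell with 136 Cxcl13 UMIs also held 101 of Ccl8, 39 of Ccl7, 25 of Ccl12, 46 of Vcam1 and 12 of Cd163, a scavenger receptor gene. The cell with 36 was the deepest, at 28373 UMIs, and held 627 of Ccl8, 36 of Ccl7, 46 of Vcam1 and 52 of Cd163. That with 20 held 187 of Ccl8, and that with 28 held none of Ccl8 or Ccl7 and 5 of Vcam1. Those with 3 and 2 were shallow, at 2154 and 535 UMIs, with 0 and 1 of Ccl8. The Ribavirin-OVA cell, of 2733 UMIs, held 67 of Ccl8, 3 of Ccl7 and 2 of Vcam1. Thus 4 of 6 cells and the single cell had Ccl8. The median mitochondrial share was 6.19% in the Vehicle-OVA cells and 9.48% in the Ribavirin-OVA cell, against 2.63% in Vehicle and 2.59% in Ribavirin, and its part in these values was not tested. Gene levels were not compared between OVA and non-OVA cells with so few of them.

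Ribavirin and Vehicle cells could be compared gene by gene, with 46 and 74 cells. Of 5377 genes, 117 were more than 2-fold higher in Ribavirin (2.18%) and 96 lower (1.79%). Many of these counts rested on few cells. The 5 with the highest ratio were Rgs5, Mup5, Cxcl5, Gm14743 and 5430402E10Rik. One Ribavirin cell held 98.1% of the Rgs5 and 96.8% of the Cxcl5 UMIs, and Mup5, with 229 against 7.21 CPM, was also higher in the Cxcl13-negative cells of Ribavirin, at 3112 against 1316 CPM. The 5 with the lowest ratio were Mmp12, Ly6i, Spp1, AA467197 and Ube2c, of which all Mmp12 UMIs came from 1 Vehicle cell. Spp1, which encodes osteopontin, had 137 against 15.2 CPM, with 45.3% of the Vehicle UMIs in 1 cell. Of 7 cell cycle genes 4 were lower in Ribavirin (Mki67, Top2a, Birc5 and Ube2c) and Mcm5 was higher, and 59.0% of the Ube2c UMIs of Vehicle came from 1 cell.

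Of the genes described above, some differed in level between the Ribavirin and Vehicle cells and some were close. Ccl8 was at 0.594 times its Vehicle level in Ribavirin [0.567, 0.623], and the Cxcl13-negative cells also had less, at 561.5 against 915 CPM. Of 15 measured chemokine genes 1 was higher (Cxcl2) and 1 lower (Cxcl9) in Ribavirin. Cxcl9, an interferon-induced ligand of CXCR3, had 1541 CPM in Vehicle and 573 CPM in Ribavirin, a ratio of 0.372 [0.326, 0.423], and 794 and 461 CPM in Cxcl13-negative cells. One Ribavirin cell held 40.7% of its UMIs, and its level was 354 CPM without that cell. Vcam1 and C4b were close, with ratios of 0.936 [0.806, 1.09] and 1.01 [0.783, 1.29]. Igf1 was lower at 0.450 [0.304, 0.652], and Adgre1 had a ratio of 1.496 [1.31, 1.71]. Rsad2, an interferon-stimulated gene, had 237 against 72.1 CPM, but 77.6% of its Ribavirin UMIs came from 1 cell, and it had 54.3 CPM without that cell. An effect of ribavirin and a difference between 2 libraries cannot be told apart here.

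Several defining markers of other cells were at 0 in the Cxcl13-expressing cells, while the summed level of some marker lists was above that of Cxcl13-negative cells. Cd79a of B cells was 0 by the rule, and Fcmr, another B cell gene, was at 0 in all libraries. The 7 B cell markers summed to 50.5 CPM in Vehicle and 45.5 CPM in Ribavirin, against 24.9 and 30.2 CPM in Cxcl13-negative cells, and the 7 T cell markers measured to 242 and 169 against 62.4 and 60.5 CPM, mostly Cd4. The 10 neutrophil markers summed to 434 and 876 CPM, against 509 and 693 in Cxcl13-negative cells and 12641 and 18048 over all kept cells, and Ly6g was at 0. The 10 microglial markers, of which 3 were limited by the rule, summed to 404 and 499 CPM against 254 and 276, and to 1534 and 1253 CPM in the P2ry12 group, with Sall1 and Slc2a5 at 0 in both libraries. Of 4 measured outside the rule, Fcrls was more than 2-fold higher than in Cxcl13-negative cells in both libraries and none was lower. At 1% C1q none of the 4 passed. The 6 markers of plasmacytoid dendritic cells summed to 930.5 and 1350 CPM, against 659 and 671 CPM in Cxcl13-negative cells. Most of this was Bst2, which is also an interferon-stimulated gene, at 780 and 901 CPM against 470 and 449 CPM. In Ribavirin the Klk1 UMIs came from 1 cell, the Ccr9 UMIs from 1 cell and 96.9% of the Siglech UMIs from 1 cell, and whether this was the same cell was not examined. The 7 plasma cell markers summed to 374 and 385 CPM against 414 and 372 CPM. The part of these markers in the results was not tested. In Ribavirin 61.3% of the S100a9 UMIs came from 1 cell. Cr2 and Fcer2a, which mark follicular dendritic cells, were at 0 in the Cxcl13-expressing cells of all 4 libraries. Of the same list of follicular dendritic and reticular markers, Madcam1, Clu and Pdpn had UMIs in Vehicle and Clu in Ribavirin. The 5 measured genes of this list summed to 10.1 and 17.1 CPM in Vehicle and Ribavirin, against 19.4 and 180 CPM in Cxcl13-negative cells. A doublet caller marked 1 of 74 Vehicle and 2 of 46 Ribavirin cells and none of the OVA cells.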

How the data were processed

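Each library was deposited as a matrix of whole UMI counts per gene and barcode, which the authors made with 10x Chromium droplets and, per the submitters' processing notes, Cell Ranger 5.0.0 on mm10, without normalization. The 27998 genes were matched to lists by symbol, leaving out 121 that share one. Cells and lists were chosen with earlier results of these data known. Samples were grouped by the treatment label. The Cxcl13-negative comparison set, shares (exact Clopper-Pearson intervals), CPM of summed counts (exact Poisson) and CPM ratios (exact conditional binomial) were computed in Python 3.11.15 with numpy 2.4.6, scipy 1.17.1 and pandas 2.3.3, at 95%, with no test, since each group had 1 library. Genes with at least 20 CPM on average over the Cxcl13-expressing and Cxcl13-negative sums of Vehicle and Ribavirin were compared, without rule genes, with 5 CPM added before the log2. Code was tested on simulated data.

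Reference cells were neutrophils (S100a8 plus S100a9 of 20 or more UMIs), T cells (2 or more Cd3e) and B cells (3 or more Cd79a) without C1q. Named genes were the 12 highest and 12 lowest by the lesser log2 ratio of both libraries, again at 1% C1q, the 5 and 5 for Ribavirin over Vehicle, and genes of the lists. A simulation-based doublet caller written for this work, with 2000 variable genes and 30 components, marked 0.578% to 4.92% of kept cells per library. Doublets were kept in the main values and removed in an alternative. The gene counts for the OVA pairs and for Ribavirin-OVA over Vehicle-OVA that had been planned were not made with 6 and 1 cells, and the gene filter was for that reason not taken over all 4 libraries. Alternatives were other limits on UMIs, mitochondrial share, Cxcl13, C1q and Arg1 plus Ccl24, thinning, pseudocounts, filters, centring and another denominator. In the total counts, 91742940 to 171873110 UMIs per library, a share near 0 rests on few cells, and depth limits it as stated. Some items of the lists are not reported here.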

Additional observations from a re-analysis of the deposited data

How the results depend on the processing

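The share of Cxcl13-expressing cells was lower with OVA under every alternative that gave a value, with the log2 ratio of Vehicle-OVA to Vehicle between -4.53 and -2.41 of kept cells and that of Ribavirin-OVA to Ribavirin between -4.60 and -3.89. Of C1q macrophages low in Arg1, Ccl24 and microglial genes it was -0.26 for Vehicle-OVA, against -2.31 of all C1q macrophages. Ribavirin-OVA had no cell with a mitochondrial limit of 5% or a Cxcl13 minimum of 5. Counts of genes depended on the settings, several of which were chosen after seeing the data. The 69 genes higher and 68 lower in Cxcl13-expressing cells were 44 and 38 with a Cxcl13 minimum of 1, 32 and 30 at 1% C1q, 42 higher with at least 50 CPM, 45 lower after thinning and 125 lower without a filter. The 117 higher and 96 lower genes of Ribavirin over Vehicle were 68 and 42, 34 and 19 with at least 50 CPM, 401 and 350 after thinning, 530 and 364 without a filter, 221 and 216 with the mean of single-cell CPM, and 179 higher with a pseudocount of 1. The cause was not tested.

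Of single genes, these log2 ratios changed sign. At 1% C1q they were 0.029 for Obp1a, 0.13 for Lcn11, 0.15 for Obp1b, 0.24 for Gm14744, 0.21 for Gm14743, 1.20 for 2310057J18Rik, 0.22 for Reg3g, 0.29 for 5430402E10Rik, 0.99 for Pip and 0.33 for BC051076 in Ribavirin, and 0.0087 for 2310057J18Rik and 0.19 for Pip in Vehicle. With the mean of single-cell CPM they were 0.0065 for Pip and 0.015 for BC051076 in Ribavirin. With a Cxcl13 minimum of 1 they were 0.19 for Cfb over Cxcl13-negative cells of Ribavirin and 0.25 for AA467197 in Ribavirin over Vehicle. No paired analysis was possible because each group had 1 library. The OVA gene counts listed among the alternatives were not run.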
